A study of Mus musculus with 6 samples.

Results

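Probes that read opposite strands of the same DNA were examined on a 1-colour Agilent array of long non-coding RNAs hybridised with hippocampal RNA of db/db and db/m mice. Of 90752 non-control probes of 60 bases, 1263 belonged to at least 1 pair in which the reverse complement of one probe held at least 30 consecutive bases of the other. They formed 1727 pairs. The rule for a pair uses sequence alone, but it was chosen with earlier results of these data known. The samples were 3 male db/db mice, which carry the leptin receptor mutation on both chromosomes and are a model of obesity with type 2 diabetes, and 3 male db/m mice, the heterozygous controls. All were 18 weeks old, the tissue was taken after behavioural tests, and each sample is labelled as a replicate of its group. Db/m mice carry 1 mutant allele, so no group was free of the mutation.

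In an animal cell both strands of a stretch of DNA can be transcribed, and the RNA from the strand opposite a gene is called its antisense RNA. An array can tell the strands apart because the labelled cRNA is complementary to the RNA it was copied from, so a probe carries the letters of the RNA it reads. MicroRNA loci are a compact case: a hairpin precursor folds back on itself, its reverse complement can fold too, and at several loci a hairpin has been annotated on each strand. The labelled material was cRNA amplified from total RNA, and a 60-base probe over a hairpin reads precursor or host RNA, not the mature microRNA.

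The files name no genes and give no positions, so the probes were matched to RefSeq hairpin and promoter sequences (GRCm38.p6). A stretch of at least 30 bases matched for 717 of the 1263 probes, 60 of them in a hairpin. At 24 sites, 26 pairs had both probes in the same hairpin. The following probe pairs are printed because they carry the strand findings at microRNA loci, with the bases shared by the 2 strands in capitals.
Mir219a-1 strand, chr17:34025009-34025068, minus: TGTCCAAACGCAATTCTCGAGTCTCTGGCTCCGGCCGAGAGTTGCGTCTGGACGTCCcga
Mir219c strand, chr17:34025012-34025071, plus: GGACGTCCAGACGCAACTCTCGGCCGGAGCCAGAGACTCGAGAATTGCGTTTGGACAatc
Mir219a-2 strand, chr2:29845633-29845692, minus: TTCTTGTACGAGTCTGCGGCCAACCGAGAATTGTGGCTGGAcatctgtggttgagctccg
Mir219b strand, chr2:29845652-29845711, plus: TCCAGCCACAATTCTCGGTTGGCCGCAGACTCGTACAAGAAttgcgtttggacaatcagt
Mir129-2 strand, chr2:94241364-94241423, minus: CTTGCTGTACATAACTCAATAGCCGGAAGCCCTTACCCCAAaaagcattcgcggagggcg
Mir129b strand, chr2:94241383-94241442, plus: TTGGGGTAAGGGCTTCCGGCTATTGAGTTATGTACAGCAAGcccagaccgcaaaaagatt
Mir142b strand, chr11:87756853-87756912, minus: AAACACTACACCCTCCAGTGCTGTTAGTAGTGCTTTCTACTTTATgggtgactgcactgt
Mir142 strand, chr11:87756868-87756927, plus: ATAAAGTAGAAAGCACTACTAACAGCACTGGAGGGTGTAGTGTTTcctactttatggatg
Mir30f strand, chr4:120772636-120772695, plus: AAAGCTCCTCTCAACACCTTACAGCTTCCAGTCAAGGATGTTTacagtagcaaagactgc
Mir30e strand, chr4:120772619-120772678, minus: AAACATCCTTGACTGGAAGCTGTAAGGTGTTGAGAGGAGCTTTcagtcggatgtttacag
Strand opposite Mir191, chr9:108568319-108568363, minus: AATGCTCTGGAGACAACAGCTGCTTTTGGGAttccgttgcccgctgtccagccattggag
Mir191 strand, chr9:108568333-108568392, plus: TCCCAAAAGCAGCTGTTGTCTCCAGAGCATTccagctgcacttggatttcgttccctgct
Of the probe opposite Mir191, 45 bases lay in the hairpin sequence, and the coordinates cover those bases. By RefSeq gene extents, the Mir219a-2 and Mir219b probes lie within Cercam, which is transcribed from the plus strand. The Mir129-2 and Mir129b probes lie within the long non-coding gene Mir670hg on the minus strand, the Mir30e site within Nfyc on the minus strand, and the Mir191 site within Dalrd3 on the plus strand. Exons and introns were not analysed here.

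The mature microRNAs of these hairpins show what each strand could yield, with the seed, bases 2 to 8, in capitals.
miR-219a-5p (Mir219a-1 and Mir219a-2): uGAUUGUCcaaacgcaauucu
miR-219c-5p (Mir219c): gGACGUCCagacgcaacucucg
miR-219b-5p (Mir219b): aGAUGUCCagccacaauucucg
miR-129-2-3p (Mir129-2): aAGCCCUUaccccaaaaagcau
miR-129b-3p (Mir129b): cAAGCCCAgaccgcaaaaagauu
miR-142a-3p (Mir142): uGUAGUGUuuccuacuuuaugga
miR-142b (Mir142b): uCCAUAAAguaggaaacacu
miR-30e-5p (Mir30e): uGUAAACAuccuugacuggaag
miR-30f (Mir30f): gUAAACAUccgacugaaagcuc
miR-191-5p (Mir191): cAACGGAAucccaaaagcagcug
Mir219a-1 and Mir219a-2 share the mature miR-219a-5p and so its seed. The microRNAs printed from the opposite strands have other seeds. The Mir219c probe holds both of its mature microRNAs whole, miR-219c-5p and miR-219c-3p. The Mir219a-1 probe holds miR-219a-1-3p, the Mir129-2 probe miR-129-2-3p, the Mir129b probe miR-129b-3p, the Mir142 probe miR-142a-3p, the Mir219b probe miR-219b-3p and the Mir191 probe miR-191-3p.

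Signals are given as log2 of the scanner's processed signal relative to the array's 75th percentile, so that 0 is a bright probe and the lowest signals well above background lay between -6.86 and -6.31. A gap or fold given as at least a value is measured from the dimmer strand's own signal or that lowest signal, whichever was higher. The lowest signal was taken over all probes of the array and is not the detection limit of the probe itself. Such a value is therefore not a strict bound. The 75th percentile itself was 331 to 381 intensity units, between 66527 and 70464 probes per array were well above background, and no spot was saturated. All 3 db/db samples were on slide 1 together with db/m replicate 1, whereas the other two db/m samples were on slide 2. The first principal component carried 41.5% of the variance, with the slide 2 arrays at its upper end (52.2 and 55.8) and the slide 1 arrays between -47.9 and 3.58. Group and slide can therefore be told apart only through db/m replicate 1, and slide 1 values are given beside the differences of named probes whose groups did not overlap. The labels name 3 mice a group but do not say which array holds which mouse, so p-values measure the spread between these samples. Cell type markers and the leptin receptor gene were not analysed here, since the files tie no probe to a gene.

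The pairs fell into 319 groups of probes linked by shared sequence. Of these, 244 were isolated pairs with 488 probes. A further 55 groups held 3 to 5 probes and 137 pairs. The remaining 20 groups held at least 6 probes each and took up 1346 of the 1727 pairs. The shared stretch had a median of 34 bases over all pairs and 41 bases in isolated pairs, and 10 pairs were complementary over all 60 bases. Below the full length the probes' remaining bases differ, so the 2 probes of a pair may also read different transcripts.

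Probes with a partner on the other strand were detected more often than the array as a whole. A probe counts as detected on an array when at least 1 of its spots is well above background. On all 6 arrays, 92.1% of the 1263 members were detected, against 70.2% of all 90752 probes. The share was 83.2% in isolated pairs, 91.4% in the groups of 3 to 5 and 99.7% in the large groups. Both strands were detected on every array in 181 of the 244 isolated pairs, or 74.2%. In 26 isolated pairs 1 strand was detected on all arrays and its partner on none. Neither strand was detected on any array in 9, and 28 pairs were mixed. No pair had a strand that was detected on all arrays of one genotype and on none of the other.

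The strands of a pair usually differed widely in signal. Probes differ in affinity, so the gap between strands describes signals and not amounts of RNA. In isolated pairs the brighter strand exceeded the dimmer by a median of 2.81 on the log2 scale, with quartiles at 1.23 and 4.98, measured also where the dimmer strand was not well above background. Where both strands were detected on all arrays the median was 2.80. The median gap was 2.77 to 2.82 on each of the 6 arrays. The same strand was the brighter one on all 6 arrays in 221 of 244 pairs, and only 54 pairs had a gap under 1. With another background correction (normexp, offset 50), which raises the lowest signals, the median gap was 1.63. As a comparison, 3816 isolated pairs whose probes overlap by 30 or more bases in the same orientation had a median gap of 0.25 and a 95th percentile of 2.07. Of the 244 opposite-strand pairs, 146 lay beyond 2.07. Those counts describe the probe sets and carry no test.

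A longer overlap brought same-strand probes closer together but not opposite strands. Same-strand pairs sharing 30 to 34 bases had a median gap of 0.66, and those sharing 55 to 60 bases had 0.16. Opposite-strand pairs had 2.63 at 30 to 34 bases, 2.45 at 35 to 44, 3.24 at 45 to 54 and 2.87 at 55 to 60. The brighter probes held slightly less G, a mean of 20.4% against 22.0% in the dimmer ones, and more G than their partner in 97 pairs against less in 135. The polyadenylation signal AATAAA, searched on the probe's own strand only, was present in 41 brighter and 25 dimmer probes of the 244 isolated pairs. It was present in 14.7% of all probes.

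At the microRNA loci the brighter probe was detected on all 6 arrays in 17 of the 26 pairs. Its partner was detected on no array in 8 of those 17, on some arrays in 5 and on all arrays in 4. At the other 9 pairs no strand was detected on all arrays. A hairpin was annotated on each strand in 21 pairs, and in none of these were both strands detected on all arrays.

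Mir219a-1 and Mir219a-2 encode miR-219, a microRNA known for its role in oligodendrocyte differentiation. The Mir219a-1 strand had levels of -3.08, -2.95 and -2.85 in the db/db mice and -2.76, -2.47 and -2.56 in the db/m mice. The Mir219c strand was not well above background on any array, so the Mir219a-1 strand was at least 14.4-fold brighter. The groups did not overlap, and the db/db mean was lower by 0.36 (log2 difference -0.36, SE 0.11, limma adjusted p = 0.218), which is not significant. Within slide 1 the difference was -0.20.

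The Mir219a-2 strand gave -5.03, -5.26 and -4.79 in db/db and -4.35, -4.76 and -4.43 in db/m mice. These groups also did not overlap, with a log2 difference of -0.51 (SE 0.16, limma adjusted p = 0.218) and -0.68 within slide 1. The Mir219b strand was not well above background on any array, which puts the Mir219a-2 strand at least 3.59-fold above it. At both loci the detectable strand was the one that carries the hairpin of miR-219a-5p.

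The Mir129-2 locus, which encodes the neuronally expressed miR-129, showed the same arrangement. The Mir129-2 strand, which is also the strand of the host gene Mir670hg, gave -4.95, -4.62 and -5.40 in db/db and -4.79, -4.86 and -4.62 in db/m mice. The groups overlapped (log2 difference -0.23, SE 0.20, limma adjusted p = 0.564). The Mir129b strand was not well above background on any array, and the Mir129-2 strand was at least 3.32-fold brighter. The Mir24-2 strand was at least 5.02-fold brighter than the Mir3074-2 strand on chromosome 8. The second copy, Mir24-1 on chromosome 13, was detected on all arrays while its partner Mir3074-1 was detected on 3.

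Mir337 belongs to an imprinted cluster on chromosome 12 that is known for its many brain microRNAs. It was read by 2 overlapping probes that share 1 partner on the Mir3544 strand. Both Mir337 probes had a mean level of -2.73 and were at least 10.8-fold above the Mir3544 strand. Other pairs of the cluster were less one-sided. The Mir380 strand was at least 2.71-fold above its partner, no strand of Mir136 or Mir3071 was detected on all arrays, and at Mir376a and Mir409 both strands were. At Mir409 the strand opposite the hairpin and opposite its host gene Mirg had a mean level of -3.46, and the Mir409 strand had -3.73, a gap of 0.27 on the log2 scale.

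The strand opposite the better known hairpin was the brighter at several loci. At Mir142, a locus known for expression in blood and immune cells, the Mir142b strand gave -3.36, -3.55 and -3.13 in db/db and -3.94, -3.56 and -3.35 in db/m mice, with overlap. The Mir142 strand was not well above background on any array, so the Mir142b strand was at least 7.59-fold brighter. The log2 difference of the Mir142b strand between genotypes was 0.27 (SE 0.18, limma adjusted p = 0.458).

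At Mir30e the Mir30f strand, opposite the host gene Nfyc, was the brighter. It gave -4.91, -4.48 and -4.51 in db/db and -4.01, -4.04 and -3.84 in db/m mice. The groups did not overlap, with a log2 difference of -0.67 (SE 0.14, limma adjusted p = 0.208) and -0.62 within slide 1. The Mir30e strand was well above background only in db/m replicate 2, where its level was -4.53, and ranged from -7.77 to -6.60 on the other arrays.

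Mir191 lies within Dalrd3 and is widely expressed. The strand opposite it gave -2.63, -2.49 and -2.40 in db/db and -2.21, -2.18 and -2.10 in db/m mice, with no overlap and a log2 difference of -0.34 (SE 0.09, limma adjusted p = 0.211). The Mir191 strand gave -3.85, -3.52 and -3.84 in db/db and -4.23, -4.10 and -3.72 in db/m mice, with overlap and a log2 difference of 0.28 (SE 0.16, limma adjusted p = 0.407). The log2 ratio of the opposite strand to the Mir191 strand was therefore lower in db/db by 0.62 (difference -0.62) and did not overlap between groups. On slide 1 the differences were -0.29, 0.49 and, for the ratio, -0.79. The ratio's exact two-sided permutation p was 0.1, which is the smallest that 3 arrays against 3 can give (20 splits).

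Mir338, another microRNA known from oligodendrocytes, lies on the strand of its host gene Aatk and had a mean level of -3.32. The Mir3065 strand opposite it was detected on 1 array and had a mean of -5.67. At Mir292 on chromosome 7 the probes were complementary over all 60 bases. The Mir292b strand gave -4.57, -4.50 and -4.66 in db/db and -4.66, -4.46 and -4.81 in db/m mice, with overlap, and the Mir292 strand was detected on 1 array.

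The let-7e locus on chromosome 17, within Spaca6, was the pair with the most even strands among those detected. The Mirlet7e strand had a mean level of -1.76 and its opposite strand -1.86, both detected on all arrays. The opposite strand was lower in db/db mice without overlap (log2 difference -0.24, SE 0.09, limma adjusted p = 0.251, and -0.12 on slide 1). Over the 17 hairpin pairs whose brighter strand was detected on all arrays, that strand was lower in db/db without overlap in 4 and higher without overlap in none. Over all 66939 probes tested, 15.1% were lower without overlap and 9.37% were higher.

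Promoter windows, 250 bases before to 50 after an annotated start, tied 5 pairs to a site with all 60 bases of both probes. At Crot, which encodes a peroxisomal carnitine acyltransferase, the pair lies at positions -245 to -184 relative to the start, outside any RefSeq gene extent. It is printed because the strand opposite the gene was the brighter one, with shared bases in capitals.
Strand opposite Crot, chr5:8997330-8997389, plus: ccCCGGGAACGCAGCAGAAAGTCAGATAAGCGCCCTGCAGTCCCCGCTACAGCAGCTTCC
Crot strand, chr5:8997332-8997391, minus: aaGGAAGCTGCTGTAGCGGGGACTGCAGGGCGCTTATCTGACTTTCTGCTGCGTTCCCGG
The opposite strand gave -2.04, -2.14 and -1.93 in db/db and -1.87, -1.85 and -1.75 in db/m mice, without overlap (log2 difference -0.21, SE 0.09, limma adjusted p = 0.291, and -0.16 on slide 1). The Crot strand gave -5.64, -5.15 and -5.26 in db/db and -4.40, -5.25 and -5.08 in db/m mice, and these overlapped. The gap between strands was 3.20, a 9.22-fold signal.

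Upstream of the Pfn1 start, which belongs to the actin-binding protein profilin 1, the strand opposite the gene was also the brighter. The brighter probe lies at chr11:70654760-70654819, within the extents of Pfn1 on the minus strand and of Eno3, a muscle enolase gene, on the plus strand. The plus strand gave 0.19, 0.24 and 0.21 in db/db and 0.15, 0.52 and 0.58 in db/m mice. The Pfn1 strand was well above background on 2 db/m arrays and on no db/db array, with a mean level of -5.97.

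At Tapbp, the gene of the antigen-loading protein tapasin, the brighter strand was the gene's own. The plus-strand probe at chr17:33919265-33919324 lies within the extent of Zbtb22 and had levels of 2.73, 2.91 and 2.94 in db/db and 2.78, 2.68 and 2.78 in db/m mice. Its partner, on the strand of the long non-coding gene Gm19412, gave -0.53, -0.39 and 0.16 in db/db and -0.66, -0.64 and -0.56 in db/m mice. The partner was higher in db/db without overlap (log2 difference 0.37, SE 0.18, limma adjusted p = 0.334, and 0.41 on slide 1). A second minus-strand probe, overlapping the first, gave the same difference of 0.37, and 0.39 on slide 1, but the 2 probes read 1 stretch and are not independent. At the pseudogene Gm13165 on chromosome 4 the opposite strand was brighter by 3.24.

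The remaining pairs described here were taken by rank, and none was placed on a chromosome by a match of both probes. Placement was tried only for pairs outside the large groups and, at promoters, for probes that matched at most 2 windows. The pair with the highest dimmer strand, MOUSELNCRNA_88462 and MOUSELNCRNA_1345, shared 33 bases and had almost equal means, 5.96 and 5.93. Probe MOUSELNCRNA_88462 gave 6.92, 5.47 and 4.54 in db/db and 5.26, 6.39 and 7.20 in db/m mice. Probe MOUSELNCRNA_1345 gave 4.12, 6.50 and 7.48 in db/db and 7.26, 5.72 and 4.52 in db/m mice. The arrays that were high for one strand were low for the other, and the log2 ratio ran from 2.80 in db/db replicate 1 to -2.95 in db/db replicate 3 and from -2.0 to 2.68 within db/m. The pattern crossed both genotypes and both slides, and the genotypes overlapped on both strands (limma adjusted p = 0.656 and 0.931). Such spread was rare: the pooled within-group SD exceeded 1 in 5 of 1163 members and in 195 of 63674 probes detected on all arrays, and the median SD over members was 0.095.

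In the other 3 pairs of this kind both strands were bright. MOUSELNCRNA_16070 and MOUSELNCRNA_34080 had mean levels of 6.54 and 5.73, MOUSELNCRNA_12382 and MOUSELNCRNA_8906 had 5.61 and 5.25, and MOUSELNCRNA_1248 and MOUSELNCRNA_27221 had 6.24 and 5.18. Of these 6 probes, MOUSELNCRNA_27221 was the one whose groups did not overlap, at 5.0, 4.90 and 5.06 in db/db and 5.17, 5.40 and 5.53 in db/m mice (log2 difference -0.38, SE 0.12, limma adjusted p = 0.216). On slide 1 its difference was -0.18.

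Taking at most 1 pair per group of connected probes, and no group already described, the widest gaps joined bright probes to undetected ones. MOUSELNCRNA_37437 gave 7.88, 7.87 and 7.78 in db/db and 8.01, 7.80 and 7.83 in db/m mice. Its partner MOUSELNCRNA_34535, complementary over 47 bases, was not well above background on any array, so the gap was at least 14.4 on the log2 scale. The next pairs under that rule had gaps of at least 10.8 (MOUSELNCRNA_86774 over MOUSELNCRNA_3985), 10.6 (MOUSELNCRNA_45316 over MOUSELNCRNA_65387) and 7.69 (MOUSELNCRNA_5248 over MOUSELNCRNA_83971). The signal of MOUSELNCRNA_3985 lay above the lowest signal well above background on each array, so 10.8 is its measured gap. Log2 differences of the 4 bright strands between genotypes were between -0.04 and 0.05, and all 4 groups overlapped.

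Full complementarity did not make strands equal. MOUSELNCRNA_37945 had a mean level of 3.60 and its complete complement MOUSELNCRNA_19904 a level of 0.00, a 12.1-fold signal. MOUSELNCRNA_46779 and MOUSELNCRNA_41475 differed 15.7-fold, MOUSELNCRNA_43100 and MOUSELNCRNA_19912 differed 5.64-fold, and MOUSELNCRNA_69044 and MOUSELNCRNA_60435 differed 1.52-fold. The MOUSELNCRNA_46779 strand was higher in db/db without overlap (0.20, SE 0.10) and its complement lower without overlap (-0.19, SE 0.12), with limma adjusted p of 0.344 and 0.424. On slide 1 the differences were 0.11 and -0.40.

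No member passed the limma test between genotypes after adjustment over all probes. Of 1263 members, 1167 passed the filter on dim probes and were tested, and 0 reached an adjusted p under 0.05, where 0.00149% of all 66939 tested probes did. The smallest adjusted p of a member was 0.185. At an unadjusted p under 0.05, 21 members were higher in db/db (6.49% of all probes tested were) and 216 were lower (11.4% of all probes). The groups did not overlap in 47 members that were higher, or 4.03%, and in 419 that were lower, or 35.9%. These shares stand against 9.37% and 15.1% of all probes tested. Members were also brighter, with a median level of 3.11 against -2.85 over all 90752 probes. Bright probes outside the pairs were also lower without overlap more often than all probes, as given for the large groups below. How much of the members' share goes with their level was not tested. The median difference over tested members was -0.07, and over all tested probes it was 0.00. With quantile scaling the split of members without overlap was 94 higher and 245 lower, against 8078 and 8469 over all probes.

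Of the 419 lower members, 267 were in the large groups. In isolated pairs 25 of 410 tested probes were higher without overlap and 110 were lower. In groups of 3 to 5 probes the counts were 15 and 42 of 171. In large groups they were 7 and 267 of 586, and the probes of a group share sequence and are not independent. With the slide as a block the members past an unadjusted p under 0.05 fell from 216 to 75 lower and from 21 to 12 higher. As shares these were 6.43% and 1.03% of members, against 6.78% and 3.91% of all probes. Without the block they were 18.5% and 1.80% of members, against 11.4% and 6.49% of all probes. On slide 1 alone they were 3.51% lower and 0.771% higher, against 4.74% and 3.45%. Without db/m replicate 1, 4 members were higher and 132 lower at an adjusted p under 0.05, along with 473 higher and 4329 lower among all probes. In that fit all db/db arrays are on slide 1 and all db/m arrays on slide 2, so it cannot separate genotype from slide.

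The 2 strands of a pair did not move together closely. Both strands were tested in 184 isolated pairs, and their differences had the same sign in 121, or 65.8%. Across those pairs Pearson's r between the brighter and the dimmer strand's difference was 0.16 and Spearman's rho 0.28. The pairs share arrays and scaling, so this is a description. On slide 1 alone r was -0.08. In 2689 isolated same-strand pairs r was 0.74 and the sign was the same in 80.2%. By overlap, r between opposite strands was -0.10 over 63 pairs sharing 30 to 34 bases, 0.33 over 51 sharing 35 to 44, 0.18 over 43 sharing 45 to 54 and 0.54 over 27 sharing 55 to 60, with no steady order. Between same-strand pairs it was 0.32, 0.72, 0.82 and 0.79 in the same bins. Both strands were lower without overlap in 21 of the 184 isolated pairs, both higher in 1, and opposite in 1. Of the 2689 isolated same-strand pairs, both probes were lower without overlap in 217, both higher in 141, and opposite in 6.

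Among pairs in which both strands were lower in db/db without overlap, MOUSELNCRNA_21423 and its full complement MOUSELNCRNA_48054 had the largest differences by their smaller member. The first gave -4.19, -4.19 and -4.35 in db/db and -3.57, -3.71 and -3.73 in db/m mice. The second gave -4.51, -4.70 and -4.91 in db/db and -4.24, -4.17 and -3.97 in db/m mice. Both strands were dim, detected on all arrays, and lower in db/db by almost the same amount: log2 differences of -0.57 (SE 0.09) and -0.58 (SE 0.13), both with a limma adjusted p of 0.208. Within slide 1 they were -0.67 and -0.47. Without db/m replicate 1 the first had a limma adjusted p of 0.032 and the second 0.070, but genotype and slide then coincide.

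MOUSELNCRNA_65516 and MOUSELNCRNA_56375 were lower by similar amounts (-0.51 and -0.58, limma adjusted p = 0.212 and 0.211), but within slide 1 the differences were -0.20 and -0.22. In the other direction, MOUSELNCRNA_61856 gave 2.19, 2.40 and 2.50 in db/db and 1.96, 2.12 and 2.05 in db/m mice. Its partner MOUSELNCRNA_67156 gave 1.15, 1.53 and 1.59 in db/db and 0.93, 0.82 and 1.0 in db/m mice. Their log2 differences were 0.32 (SE 0.11) and 0.50 (SE 0.14), with limma adjusted p of 0.230 and 0.211, and 0.40 and 0.49 on slide 1. Both probes had 1 spot per array. MOUSELNCRNA_85646 and MOUSELNCRNA_34197 were both higher by 0.25 and 0.23 (0.16 and 0.14 on slide 1), with levels 31.7-fold apart.

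A constant scaling factor of an array cancels in the ratio of 2 strands, while quantile scaling does not. Of the 184 isolated pairs, the log2 ratio of the brighter to the dimmer strand did not overlap between genotypes in 58, or 31.5%. It was higher in db/db in 39 and lower in 19. In isolated same-strand pairs 18.1% did not overlap in either direction, but these share a median of 54 bases against 41. With at least 45 shared bases, 14 of 70 opposite-strand pairs did not overlap, or 20%. Of 1997 same-strand pairs with that overlap, 178 were higher without overlap and 144 lower. Among the 184 opposite-strand pairs the size of the change was small. The median difference of the ratio was 0.07, and in 1 pair of 184 its size exceeded 1.

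A change of which strand was brighter was seen in MOUSELNCRNA_9171 and MOUSELNCRNA_30142, which share 44 bases and had nearly equal mean levels of 3.46 and 3.45. MOUSELNCRNA_9171 gave 3.42, 3.58 and 3.53 in db/db and 3.52, 3.39 and 3.33 in db/m mice, which overlap. MOUSELNCRNA_30142 gave 3.07, 2.93 and 3.13 in db/db and 3.73, 3.85 and 3.96 in db/m mice, with no overlap. So MOUSELNCRNA_9171 was the brighter strand on every db/db array and MOUSELNCRNA_30142 on every db/m array. The log2 ratio was 0.35, 0.65 and 0.40 in db/db and -0.21, -0.47 and -0.63 in db/m, a difference of 0.90. This pair and the other 3 with a large change of ratio were picked because their ratios did not overlap. With 3 arrays against 3, that alone fixes the exact two-sided permutation p at 0.1, so it tests nothing here. No member had a smaller adjusted p than MOUSELNCRNA_30142 (log2 difference -0.81, SE 0.10, limma adjusted p = 0.185). Without db/m replicate 1 its limma adjusted p was 0.017, but genotype and slide then coincide. On slide 1 alone MOUSELNCRNA_30142 differed by -0.69 and the ratio by 0.68.

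In the other 3 pairs with a large change of ratio, 1 strand carried most of it. MOUSELNCRNA_84884 gave -1.03, -1.04 and -0.85 in db/db and -0.59, 0.12 and 0.21 in db/m mice, while its partner MOUSELNCRNA_67451 overlapped, and the ratio was lower in db/db (difference -1.0, and -0.59 on slide 1). MOUSELNCRNA_67257 gave -0.88, -1.03 and -0.59 in db/db and -0.27, 0.86 and 0.77 in db/m mice, with a ratio difference over MOUSELNCRNA_56760 of -0.89 and -0.73 on slide 1. MOUSELNCRNA_67257 and MOUSELNCRNA_67451 had 1 spot each per array, and their partners had 2. The slide 1 differences of MOUSELNCRNA_84884 and MOUSELNCRNA_67257 themselves were -0.38 and -0.56, against -0.88 and -1.28 over both slides. In these 2 pairs db/m replicate 1, on slide 1, lay nearest to the db/db mice. In the last pair it was the dimmer strand MOUSELNCRNA_47446 that was higher in db/db (-2.84, -2.80 and -2.56 against -3.45, -3.45 and -2.98), and the ratio of MOUSELNCRNA_76469 to it differed by -0.84. On slide 1 the strand's own difference was 0.72 and that of the ratio -1.35, and with the normexp background the ratio's was -0.36.

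Within each of the 20 large groups the probes formed 2 sides, one per strand, called bright and dim by their median level. Single probes can depart from the name of their side: in a group of 11 probes the dim side held MOUSELNCRNA_16070 at 6.54, above the bright side's highest level of 5.73. The largest held 190 probes, and its probes matched a median of 16.5 of 32851 RefSeq promoter windows over at least 30 bases. A bright side of 172 probes, with a median level of 8.03, stood opposite a dim side of 18 probes at -0.97. The brighter probe was the same on all 6 arrays in all 537 of its pairs. The next group held 150 probes, with 116 at a median level of 7.69 and 34 at 2.18. A group of 33 probes was nearly balanced in number, 17 against 16, and had median levels of 8.20 and 1.87.

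The dim side's median difference was lower in db/db in 17 of the 20 groups and higher in 3. On slide 1 it was lower in 13 and higher in 7. Of 123 tested dim-side probes, 89 were lower without overlap and 0 higher, where 15.1% and 9.37% of all probes tested were. Probes of a side share sequence, so these counts are not of independent measurements. The 7 dim-side probes of a group of 16 were all higher in db/db, by a median of 0.08, although they overlapped. The 3 groups with more than 10 probes on the dim side are given in full. In the group of 190 the dim side's median level was -1.16, -1.10 and -1.06 in db/db and -0.95, -0.77 and -0.78 in db/m mice. In the group of 150 it was 1.91, 1.90 and 2.09 against 2.28, 2.38 and 2.56, and in the group of 33 it was 1.71, 1.69 and 1.73 against 1.84, 2.11 and 2.17. The 3 db/m medians stood above the 3 db/db medians in each of these 3 groups. The median log2 differences of the dim sides were -0.28, -0.38 and -0.34, and the groups did not overlap for 15 of 18, 32 of 34 and 16 of 16 of their probes. On the bright sides they were -0.07, -0.06 and -0.06. On slide 1 the dim sides had -0.11, -0.23 and -0.14, and the bright sides -0.10, -0.12 and -0.11. Probes outside the pairs with levels within 0.5 of each dim side had median differences of 0.02, 0.00 and 0.01. Of these, 17.3%, 16.9% and 16.8% were lower without overlap. Those at the level of the bright sides had median differences of -0.06, -0.08 and -0.06, and 39.3%, 45.5% and 37.9% were lower without overlap. On the bright sides of all 20 groups, 178 of 463 tested probes were lower without overlap and 7 higher. No probe of the large groups passed an adjusted p of 0.05 (limma), and before adjustment 110 were lower and 0 higher.

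Over the pairs of the large groups the ratio of bright to dim was thus higher in db/db without overlap in 408 of 1340 pairs and lower in 10. Together these were 31.2%. Among 14605 same-strand pairs of large groups, the ratio of the 2 probes was higher without overlap in 2775 and lower in 815. For the opposite-strand pairs the following values hold. Its median difference was 0.22, but on slide 1 alone it was 0.03. The pairs of a group share probes, and fewer cells that make such RNA and less of it per cell cannot be told apart in tissue RNA.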

How the data were processed

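RNA of the hippocampus of 6 mice was hybridised to 1-colour Agilent arrays. The deposited scanner files hold spot intensity values that the authors made with Feature Extraction (12.0.3.1 per the file headers, 10.7 in the submitters' processing notes, where limma is also listed). The authors also deposited a table of log2 values. In it, the columns for db/db 2 and 3 were exchanged relative to the scanner files, so it served only as an alternative. A mapping of probes to genes and a genome build are not given in the sources used here.

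From these, log2 of the processed signal minus each array's 75th percentile was computed, and spots of a probe were averaged. Probes entered the test if every array of either genotype showed them well above background. Group differences were fitted over all 66939 such probes with limma 3.58.1 (R 4.3.3) and adjusted by Benjamini-Hochberg. Pairs were found with Python 3.11.15 by exact match of at least 30 bases after reverse complement. Strand ratios were compared by exact permutation over 20 splits. The fit was checked on simulated data. The number of arrays limits the precision.

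Pairs were named by rank, at most 1 per group of connected probes and in this order: any with an adjusted p under 0.05, then the 4 with the highest dimmer strand, the 4 widest gaps to an undetected strand, the 4 largest changes of ratio without overlap, the 2 in each direction whose strands both differed without overlap, any detected in 1 genotype only, and 4 with the longest shared stretch. Pairs placed in a RefSeq hairpin or promoter window were added. The members and lists were chosen with earlier results of these data known. Replicate numbers did not pair the samples: the correlations of same-numbered arrays' deviations were 0.083, -0.15 and 0.13, and their own number was the best match for 2 of the 6 arrays. Alternatives covered scaling, background, filter, slide, overlap length and each array left out.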

Additional observations from a re-analysis of the deposited data

How the results depend on the processing

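Slide and scaling set most limits, since db/m replicate 1 was the 1 control array on the slide of the db/db arrays, and 6 arrays bound the precision. Causes of the changes were not tested. Single named strands passed an adjusted p of 0.05 in 8 cases, all of them without db/m replicate 1, where genotype and slide coincide. Of 53 strand differences 33 kept their sign under every alternative run and 20 changed it under at least 1, among them both strands of the pair MOUSELNCRNA_88462 and MOUSELNCRNA_1345. Of 20 strand ratios 16 kept their sign. Counting each ratio under each alternative as 1 value, 12 values moved beyond the replicate spread and 188 did not.

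Members past an adjusted p of 0.05 numbered 0 in the limma fit (21 higher and 216 lower before adjustment). Leaving out each array gave 0 to 136 of them. At an unadjusted p under 0.05 it gave 12 to 30 higher and 104 to 275 lower members. Without overlap it gave 57 to 121 higher members and 433 to 534 lower. As shares of members these were 4.88% to 10.37% higher and 37.1% to 45.76% lower. Among all probes 12.05% to 22.01% were then higher without overlap and 17.77% to 23.03% lower. The member counts that follow are of 1167 tested members, except those with at least 45 shared bases, which are of 297. Members higher at an unadjusted p under 0.05 were 36 with the authors' deposited values, 34 with quantile scaling, 9 on slide 1, 12 with the slide as a fixed block and 7 with at least 45 shared bases. Lower ones were 41 on slide 1, 75 with the fixed block and 42 with at least 45 bases. Without overlap, 94 were higher with the authors' values, 94 with quantile scaling, 113 on slide 1 and 17 with at least 45 bases, and 248, 245, 762 and 71 were lower. On slide 1, with 1 control array, 37.6% of all probes were lower without overlap and 21.8% higher, against 65.3% and 9.68% of members. With quantile scaling these shares were 12.7% and 12.1% of all probes and 21.0% and 8.05% of members. With the authors' values they were 12.69% and 12.02% of all probes and 21.25% and 8.05% of members. With the replicate number as a block, 17 members were higher and 177 were lower before adjustment and 0 after it, and the numbers do not pair the samples.

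The median gap of isolated pairs was 1.634 with normexp, 3.205 with at least 45 bases, 2.757 with 1 pair per group, 2.842 on slide 1 and 2.791 to 2.841 leaving out each array, the last 2 chosen after seeing the data. Both strands were detected in 68.03% of isolated pairs when both spots had to be. Pearson's r was 0.09679 with the authors' values, 0.1145 with normexp, 0.3201 with at least 45 bases, and -0.07691 both on slide 1 and with the fixed block, and 0.09866 to 0.1929 leaving out each array. The share with the same sign was 60.87% with the percentile over detected probes, 55.98% with the authors' values, 56.52% with quantile scaling, and 60.33% to 67.39% leaving out each array. Ratios without overlap were higher in 67 pairs on slide 1, 9 with at least 45 bases and 60 with 1 pair per group, and lower in 45 and 5 of the first 2. Leaving out each array gave 44 to 55 higher and 23 to 30 lower. The median ratio difference was 0.0815 with the authors' values, 0.08016 with quantile scaling, 0.04622 with at least 45 bases and 0.0391 to 0.0766 leaving out each array. In large groups it was 0.03441 on slide 1 and 0.1605 to 0.3018 leaving out each array.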
